A study of Mus musculus with 4 samples.

Results

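Tumor neutrophils made up 376 of the 28144 cell barcodes (1.34%) that passed the depth and mitochondrial limits in 4 single-cell libraries of MMTV-PyMT mouse mammary tumors. The members were chosen by their measured transcripts. A barcode needed at least 500 unique molecular identifiers (UMIs, each standing for 1 captured transcript) with mitochondrial genes at no more than 20% of them, at least 50 UMIs of S100a8 plus S100a9 per 10000, at least 2 UMIs of Csf3r, Cxcr2 and Retnlg together, fewer than 10 UMIs of C1qa, C1qb and C1qc per 10000, and no UMI of Cd3e. The rule found 210 and 71 members in the Cre- replicates 1 and 3, and 27 and 68 in the Cre+ replicates 2 and 4.

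Neutrophils are short-lived granulocytes that are made in the bone marrow under the cytokine G-CSF, acting through its receptor Csf3r, and that leave the blood along gradients of CXC chemokines read by Cxcr2. S100a8 and S100a9 encode calprotectin, the most abundant protein of their cytosol, and granule genes such as Elane and Camp are transcribed in bone marrow precursors and silenced before release. In mouse tumors, neutrophils are known to range from cells close to those of the blood to cells with Siglecf, cytokine and hypoxia transcripts.

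The study asked what loss of Frmd8, a gene for a FERM domain protein, does in mammary tumors that the polyoma middle T oncogene (PyMT) drives under the MMTV promoter. The tumors of 4 mice (1 library each, 10x Genomics 3′ kit) were taken at 17 to 18 weeks, with 2 libraries of the genotype MMTV-Cre-; Frmd8fl/fl; PyMT (here Cre-) and 2 of MMTV-Cre+; Frmd8fl/fl; PyMT (here Cre+). All 4 mice carried the floxed Frmd8 allele and the PyMT transgene, and MMTV-Cre is directed at luminal epithelium, so neutrophils were not its intended target. Cells were sorted by flow cytometry before loading, with no gate stated. The libraries held 122658098, 126843597, 112729231 and 157662955 UMIs in the order Cre- replicates 1 and 3 and Cre+ replicates 2 and 4, which is the order of every 4 values below. Cre+ replicate 4 was deposited with all its droplets and carries the header of another Cell Ranger version, while the other 3 libraries were deposited as called cells. With 2 mice a genotype, genotype and that difference cannot be told apart for any value that rests on Cre+ replicate 4, and each gene is therefore given by library.

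S100a8 and S100a9 are neighbours on mouse chromosome 3, and with Retnlg and Il1b, a gene of the resistin family and the gene of interleukin-1 beta, they carry most of what follows. The 100 bases before their RefSeq start sites are shown from the GRCm38.p6 build, 5′ to 3′ on the strand of the gene, because S100a8, S100a9 and Retnlg are genes of the rule and Il1b is the most abundant of the cytokine and chemokine genes in the members. The capitals mark TATAAA, searched on both strands, which 5.56% of 32851 RefSeq promoter windows of the same length hold.
S100a8 (chr3:90668971-90669070, plus strand): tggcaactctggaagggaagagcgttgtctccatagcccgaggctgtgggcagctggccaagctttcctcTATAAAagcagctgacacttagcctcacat
S100a9 (chr3:90695722-90695821, minus strand): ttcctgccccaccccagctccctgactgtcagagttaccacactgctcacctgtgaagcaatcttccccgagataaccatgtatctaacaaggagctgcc
Retnlg (chr16:48872508-48872607, plus strand): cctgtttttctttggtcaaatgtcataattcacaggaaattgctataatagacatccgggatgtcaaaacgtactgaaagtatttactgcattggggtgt
Il1b (chr2:129371140-129371239, minus strand): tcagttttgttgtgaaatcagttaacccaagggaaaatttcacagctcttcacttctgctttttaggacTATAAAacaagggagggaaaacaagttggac
S100a8 and Il1b hold the motif at 30 and 31 bases before the start, and the windows of S100a9 and Retnlg do not hold these letters.

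The genes of the rule are given as a description, with no test. In counts per 1000000 UMIs summed over all members of a library (CPM, 3′ tags that are not scaled by gene length), S100a8 stood at 16531, 16450, 27646 and 22246 and S100a9 at 31665, 28576, 45354 and 37904. Csf3r was at 1352, 1039, 1718 and 713 CPM, and Cxcr2 at 888, 948, 1082 and 486 CPM. Retnlg was at 769, 624, 2267 and 4703 CPM. S100a8, S100a9 and Retnlg lay higher in both Cre+ libraries, and Csf3r and Cxcr2 overlapped. In C1q macrophages of the same libraries (5286 barcodes with at least 20 UMIs of C1qa, C1qb and C1qc per 10000), S100a8 did not pass 7.70 CPM and Cxcr2 did not pass 0.144 CPM. The 190 monocytes taken by Ly6c2 and Chil3 held at most 33.3 CPM of S100a8, and 13636 epithelial barcodes held 19.8, 61.7, 35.3 and 149 CPM. Macrophages, monocytes and epithelial barcodes were all taken below the rule's limit for S100a8 plus S100a9. Monocytes were also taken below its limit for Csf3r, Cxcr2 and Retnlg together. Low levels of these genes in those classes were thus bounded by the selection and are not a measured contrast between cell types. Droplets of up to 100 UMIs in Cre+ replicate 4, a measure of free RNA, held 300.1 CPM of S100a8.

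**Figure D1:**
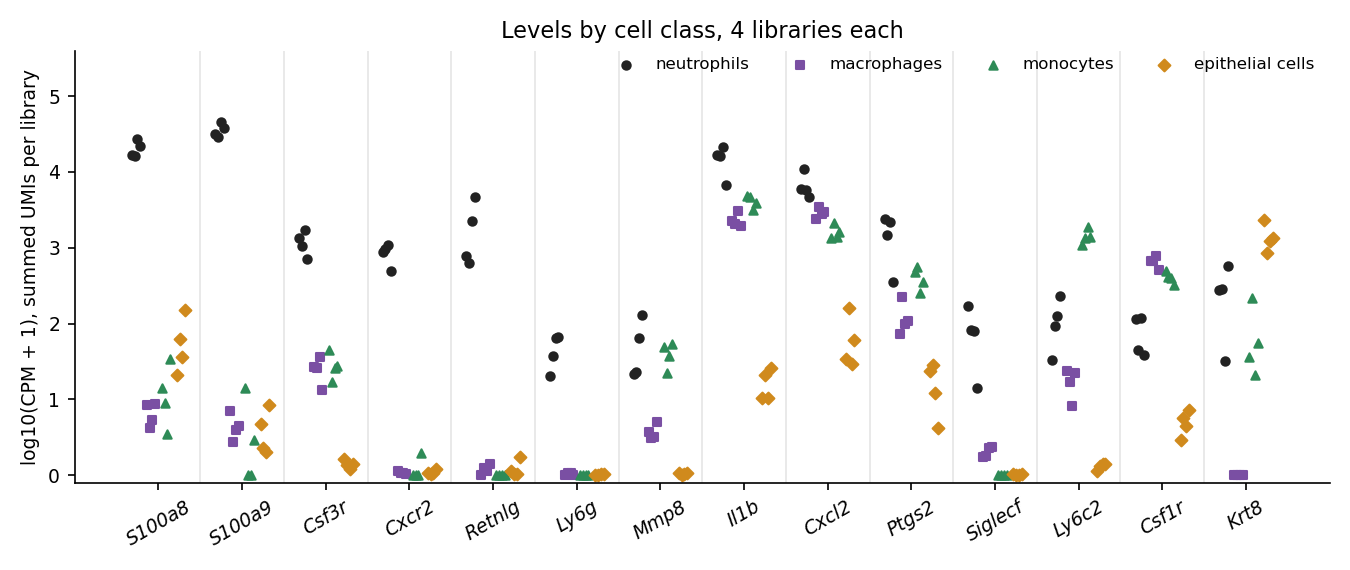
Level of 14 genes as log10(CPM + 1) of UMIs summed per library, with 1 point per library for neutrophils, C1q macrophages, Ly6c2/Chil3 monocytes and epithelial cells. S100a8, S100a9, Csf3r and Cxcr2 were part of the rule and so was Retnlg. The other classes were taken below the rule's limit for S100a8 plus S100a9, and monocytes also below its limit for Csf3r, Cxcr2 and Retnlg. Their low levels of these genes were bounded in advance. Retnlg and Ly6g are at or near 0 in the other classes, while Il1b and Cxcl2 are also found in macrophages and monocytes.

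Markers that the rule did not use bear on the label. Ly6g, the surface antigen by which mouse neutrophils are gated, had a UMI in 6.67%, 4.23%, 14.8% and 19.1% of members, and in 0% of macrophages, monocytes and epithelial cells after thinning to 500 UMIs, where members were at 0.476%, 1.41%, 0% and 5.88%. Thinned percentages of the other classes here are over at most the first 400 barcodes of a class in each library. Of the 11 immature granule genes, which mark bone marrow precursors, 3 (Camp, Elane and Ctsg) had 0 UMIs in every library, which allows up to 3.04, 7.37, 23.5 and 5.63 CPM (3 counts per library, counting error only). The other 8 were detected in at least 1 library. Among them Ltf had a UMI in 18.1%, 5.63%, 7.41% and 13.2% of members, Prtn3 in at most 5.71% and Cebpe in at most 7.41%, and Lcn2 was abundant. After thinning to 500 UMIs, Ltf was in 3.33%, 0%, 0% and 1.47% of members and in 31.25%, 4.75%, 14.5% and 10.5% of epithelial cells. Lcn2 was in 27.1%, 26.8%, 33.3% and 47.1% of members and in 74.5%, 85.25%, 85.75% and 57.75% of epithelial cells. Cebpe was in at most 2.86% of members and in 0% of epithelial cells. The part of free RNA in these UMIs was not tested. Epx and Prg2, of the eosinophil list, were also at 0, although Ccr3 was at 8.11, 9.82, 23.5 and 3.75 CPM and Siglecf at 170, 81.0, 78.4 and 13.1 CPM. Whether some members were eosinophils was not tested, and the label is used as given.

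The median member held 3653, 3835, 3912 and 3911 UMIs, below the 7302, 14561, 11287 and 4655 of macrophages, and 1349, 1268, 1374 and 1222 genes. A small set of members was far deeper: 10, 4, 2 and 10 members held 10000 UMIs or more, and these 26 barcodes carried 23.9%, 35.1%, 19.9% and 58.8% of all member UMIs. Their levels of other cells' genes differed by list and by library. The 9 epithelial genes listed (Epcam, keratins and milk proteins) summed to 12241, 18772, 433 and 5047 CPM in the deep members and to 502, 481, 578 and 383 CPM in the other 350, with Csn3, a casein, the most abundant. The 3 fibroblast genes (Col1a1, Col3a1, Dcn) summed to 4584, 21.0, 0 and 9.58 CPM in the deep members and to 123, 163, 235 and 68.4 CPM in the others, and the 3 endothelial genes reached 1418 CPM in the deep members of Cre+ replicate 2 and at most 14.7 CPM in the others. The 6 macrophage genes were lower in the deep members of all 4 libraries, at 186, 203, 394 and 482 CPM, and the 4 monocyte genes in 3 of 4, at 50.8, 35, 39.4 and 508 CPM. No doublet caller was run, and what the deep barcodes contain was not tested further. Levels below are therefore those of the 350 members under 10000 UMIs (200, 67, 25 and 58), a limit chosen after the data were seen, with the fit over all members beside each adjusted p.

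Single UMIs of other cell types were common: 201 of the 376 members (111, 36, 16 and 38) had at least 1 UMI of Epcam, Krt8, Krt18, Col1a1, Cd79a or Pecam1. Without these and without barcodes of 30000 UMIs or 5000 genes and above, here called likely doublets, the remaining members would be 1.84%, 0.538%, 0.185% and 0.291% of the same barcodes as in the shares given below. Such barcodes were taken out of the members only, so these values are not shares among barcodes free of them. The gene lists of other cell types were summed over the 350 members. The 6 macrophage genes summed to 501, 602, 597 and 488 CPM, with Apoe the most abundant at 327, 352, 450 and 264 CPM. The 4 monocyte genes summed to 195, 197, 304 and 160 CPM, with Ly6c2 at 36, 136, 157 and 86.6 CPM. The 6 T and NK genes did not pass 11.4 CPM, the 4 B cell genes 2.67 CPM, the 5 dendritic genes 13.7 CPM (Fscn1 leading), the 4 mast cell and basophil genes 4.56 CPM, the 3 platelet genes 19.6 CPM (Pf4 leading) and the 3 eosinophil genes 29.4 CPM. The 4 hemoglobin genes were at 0 in 3 libraries and at 59.3 CPM in Cre+ replicate 4.

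The neutrophil share was higher in both Cre- libraries. Of the barcodes within the limits, Cre- replicate 1 had 3.90% (210 of 5385, 95% Clopper-Pearson interval 3.4 to 4.45) and Cre- replicate 3 had 1.09% (71 of 6500, 0.854 to 1.38). Cre+ replicate 2 had 0.454% (27 of 5947, 0.299 to 0.660) and Cre+ replicate 4 had 0.659% (68 of 10312, 0.512 to 0.835). The genotypes did not overlap, but the Cre- libraries differed from each other by more than Cre- replicate 3 differed from either Cre+ library. The mean share was 2.50% ± 1.99 in Cre- and 0.557% ± 0.145 in Cre+ (SD, n = 2 libraries each), a difference of -1.94 percentage points with p = 0.33 in a two-sided exact permutation test, the smallest p that 2 against 2 allows. Without Cre- replicate 1 the difference was -0.536 points.

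The denominator mattered for Cre+ replicate 4, which was deposited with low-depth droplets. An order-of-magnitude threshold of 10978 UMIs left 3854 of its barcodes, of which 10 were members. Its 68 members set against those 3854 barcodes gave 1.76%, above Cre- replicate 3 (exact permutation p = 0.667), but all but 10 of the 68 lie outside that set, so this value is not a share of it and no order is read from it. The ratio to macrophages was taken within each library, with the same 500 UMI minimum. There were 31.2, 6.61, 2.25 and 2.91 neutrophils per 100 C1q macrophages, again without overlap (p = 0.33, exact permutation test). The ratio moved with the minimum depth: in Cre+ replicate 4 it was 4.21 at a minimum of 1000 UMIs and 4.68 at 2000, while Cre- replicate 3 stood at 7.18 and 7.63. The sort, the cell calling and the low depth of neutrophils can each set such shares and were not tested.

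**Figure D2:**
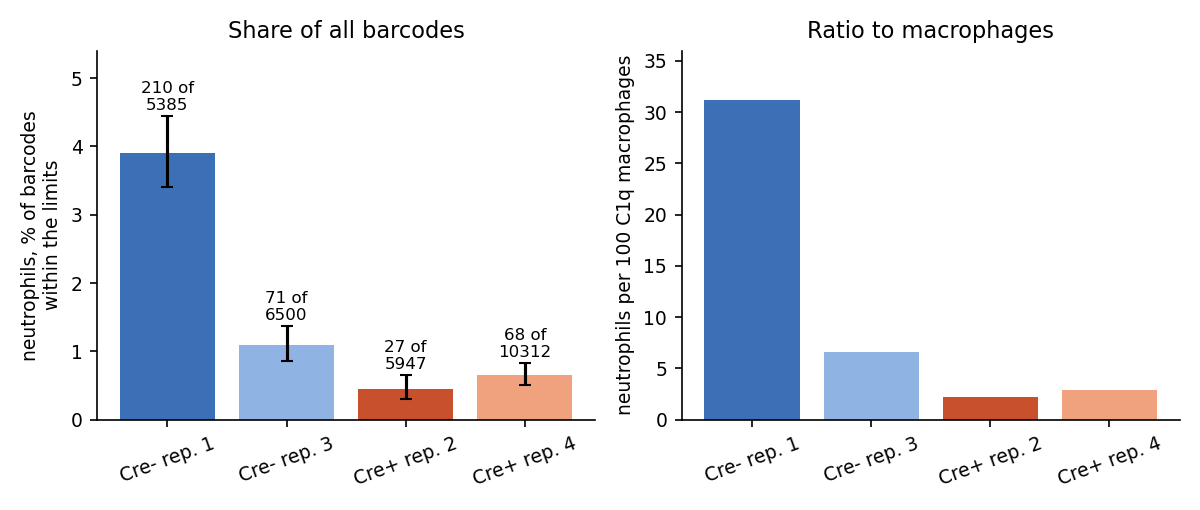
Left, neutrophils as a percentage of all barcodes within the depth and mitochondrial limits in each library, with 95% Clopper-Pearson intervals and the counts behind each bar; right, neutrophils per 100 C1q macrophages. Cre- replicate 1 stands at 3.90% and 31.2 per 100, the other 3 libraries between 0.454% and 1.09% and between 2.25 and 6.61 per 100.

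Barcodes lay close to the limits of the rule on both sides. Just inside the S100 limit, 33 members held 50 to 75 UMIs of S100a8 plus S100a9 per 10000, and 40 barcodes that met every other criterion held 25 to 50. With the receptors, 17 members had exactly 2 UMIs and 53 barcodes that met the other criteria had 0 or 1. There were 100 barcodes under 10000 UMIs that met every criterion but the S100 limit (57, 13, 9 and 21). These had Csf3r at 1205, 868, 616 and 476 CPM and Cxcr2 at 382, 367, 187 and 432 CPM, and Il1b at 16321, 18353, 7541 and 7894 CPM. Their macrophage list summed to 2544, 2572, 4517 and 2281 CPM, above that of members.

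No member barcode was a member in a second library. Pairs of libraries shared 7 to 22 barcodes within the limits, and 1 member of Cre- replicate 1 had its barcode in Cre- replicate 3 and 1 had it in Cre+ replicate 4.

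Members differed from each other in Retnlg. Of the members under 10000 UMIs, 57 of 200 (28.5%, 95% Clopper-Pearson interval 22.4 to 35.3) and 26 of 67 (38.8%, 27.1 to 51.5) in the Cre- libraries had a UMI of it. The Cre+ libraries had 14 of 25 (56.0%, 34.9 to 75.6) and 45 of 58 (77.6%, 64.7 to 87.5). After all members were thinned to 500 UMIs, the shares were 14.8%, 22.5%, 40.7% and 64.7%. Macrophages thinned to the same depth, the first 400 of each library, had a Retnlg UMI in at most 0.50%. Retnlg helped choose the members, so these shares carry no test. The median over all members was 0, 0, 6.74 and 37.5 UMIs of Retnlg per 10000, against 199, 185, 214 and 94.0 of Il1b.

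**Figure D3:**
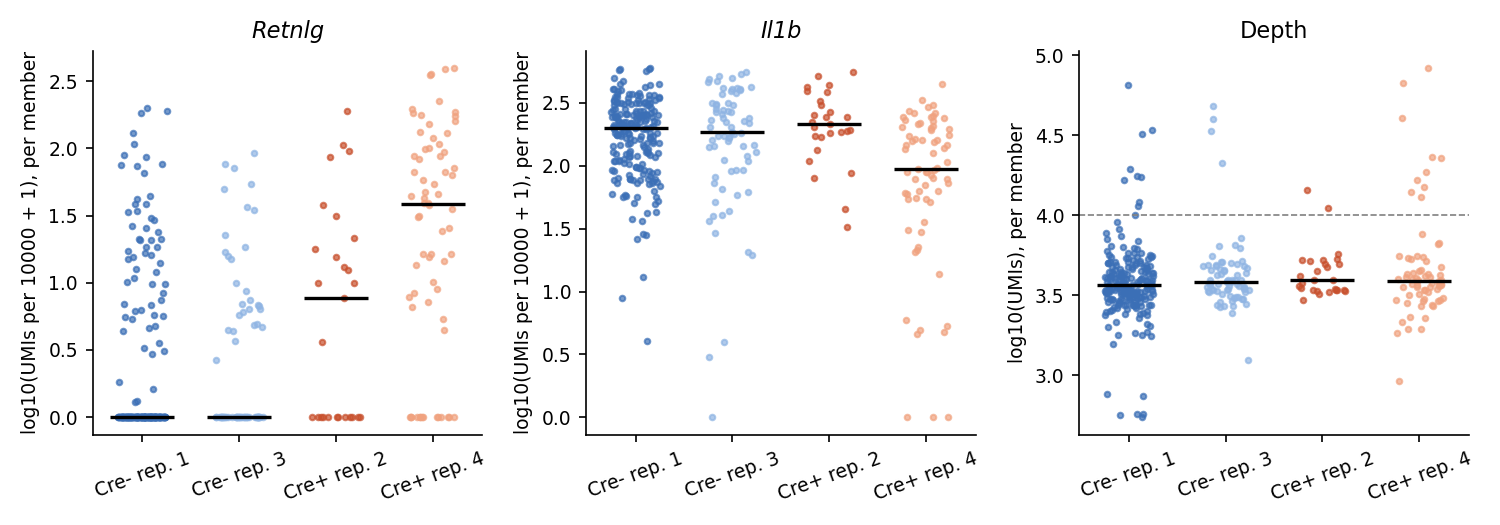
Each point is 1 of the 376 members, by library, with UMIs of Retnlg and of Il1b per 10000 as log10(value + 1) and the total UMIs as log10, and with the median as a black bar. Most members of the Cre- libraries lie at 0 for Retnlg while medians in the Cre+ libraries are 6.74 and 37.5; the dashed line marks 10000 UMIs, above which 26 members lie.

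Members with and without Retnlg differed in other genes as well, in each library alone. This split was chosen after the data were seen and is a description. The median depth was 3841, 3483, 3847 and 3738 UMIs in members with Retnlg and 3383, 3920, 3445 and 3420 in those without. Of 2621 genes with at least 50 CPM, 351 (13.4%) were higher in the members with Retnlg in all 4 libraries and 762 (29.1%) were lower. Of the 15 mature neutrophil genes, 11 were higher in all 4 libraries and 0 lower. Ly6g was at 64.0, 131, 144 and 161 CPM in members with Retnlg and at 5.65, 0, 0 and 0 CPM in the others. The chemokine gene Ccl6 was at 603, 1288, 2365 and 2331 CPM with Retnlg against 117, 121, 64.2 and 78.1 CPM.

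Of the 11 immature granule genes, 1 was higher with Retnlg in all 4 libraries and 1 lower. The lower was Ltf, the gene of lactoferrin, at 50.3, 0, 0 and 11.9 CPM with Retnlg and at 82.8, 24.3, 85.6 and 58.6 CPM without. Outside Cre- replicate 1 these Ltf values rest on few UMIs. The higher was Lcn2, the iron-binding granule protein lipocalin-2, which stood at 1170, 1630, 1408 and 1998 CPM with Retnlg and at 487, 479, 193 and 390 CPM without. The protease inhibitor gene Slpi stood at 2632, 2546, 3719 and 2967 CPM with and at 521, 1050, 1199 and 800 CPM without, and Anxa1, the gene of annexin A1, at 411, 574, 939 and 1064 CPM against 136, 115, 171 and 215 CPM. S100a8 and S100a9 were also higher with Retnlg, S100a8 at 34973, 36624, 43740 and 51404 CPM against 14638, 12510, 16887 and 12260 CPM.

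The members without Retnlg carried another set of transcripts. Tnf, the gene of tumor necrosis factor, was at 198, 406, 578 and 469 CPM in them and at 27.4, 30.2, 36.1 and 77.3 CPM in members with Retnlg. Siglecf, a sialic acid receptor known from tumor neutrophils and eosinophils, was at 271, 176, 171 and 78.1 CPM against 73.1, 40.3, 36.1 and 17.8 CPM. Cd63, a membrane protein of granules and endosomes, was at 644, 813, 942 and 1074 CPM against 343, 413, 144 and 256 CPM. Of the 16 tumor-state genes, 9 were lower with Retnlg in all 4 libraries and 0 higher.

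Further genes of the members without Retnlg were picked for the size of the difference after their values were seen. Ltc4s, leukotriene C4 synthase, was at 105, 176, 257 and 117 CPM without Retnlg and at 0, 10.1, 0 and 0 CPM with it. Ptgs1, a cyclooxygenase, was at 130, 109, 300 and 58.6 CPM against 0, 0, 18.1 and 0 CPM.

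Of the 10 neutrophil transcription factors, 2 (Cebpb and Spi1) were higher with Retnlg in all 4 libraries and 2 (Klf2 and Maff) lower. Cxcr2, part of the rule, was at 1572, 1872, 1552 and 1088 CPM with Retnlg and at 935, 1074, 985 and 586 CPM without, and Cebpb, a transcription factor of mature myeloid cells, at 8141, 9722, 8918 and 7326 CPM against 7240, 6953, 5394 and 5759 CPM. The macrophage list summed to 334, 634, 668 and 505 CPM with Retnlg and to 570, 582, 514 and 429 CPM without, and the epithelial list to 516, 332, 668 and 345 CPM against 497, 570, 471 and 508 CPM.

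**Figure D4:**
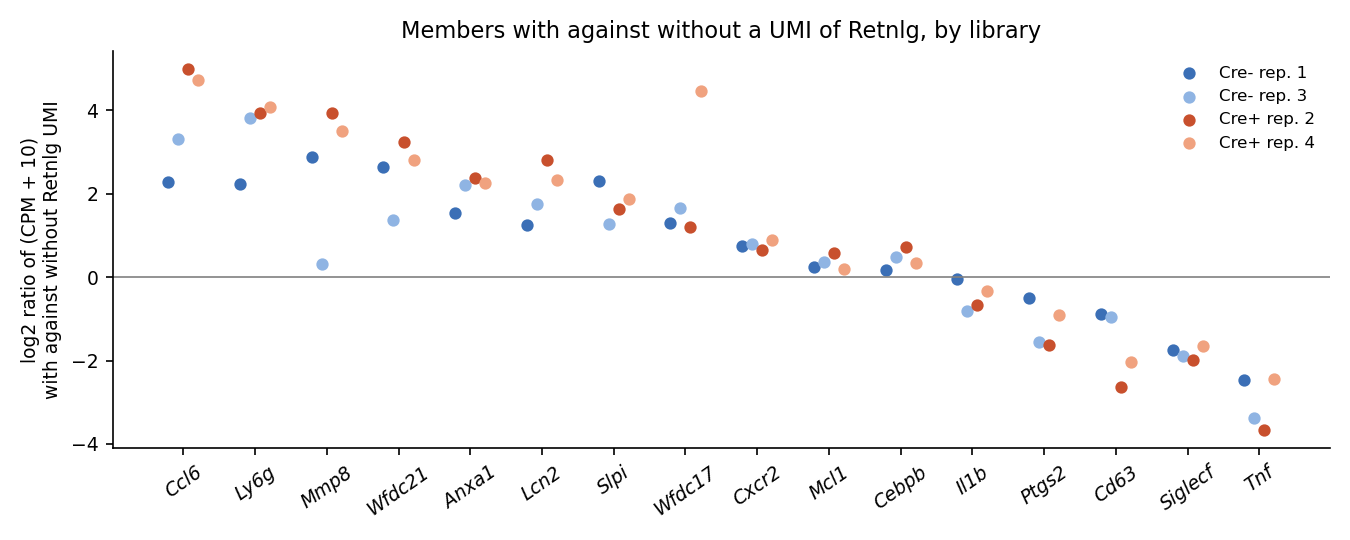
Log2 ratio of (CPM + 10) in members with a UMI of Retnlg to members without one, for 16 genes, with 1 point per library over members under 10000 UMIs. The 8 genes from Ccl6 to Wfdc17 lie above 0 in all 4 libraries, and Il1b, Ptgs2, Cd63, Siglecf and Tnf lie below 0 in all 4.

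A second split used 16 tumor-state genes (among them Cd14, Ptgs2, Ier3, Icam1 and Ccrl2), with members divided at the median of each library after thinning to 500 UMIs. As designed, over all members, 210 of 2746 genes of at least 50 CPM (7.65%) were higher in the upper part in all 4 libraries and 160 (5.83%) lower, and of the 15 cytokine and chemokine genes 5 were higher and 0 lower. Among the 350 members under 10000 UMIs, not thinned for the levels, 243 of 2602 genes (9.34%) were higher and 282 (10.8%) lower. Of the cytokine and chemokine genes, 5 were higher there and 1, Ccl6, lower. The chemokine gene Cxcl2, a ligand of Cxcr2, was at 11921, 23102, 10214 and 15459 CPM in the upper part and at 4535, 9946, 3078 and 5857 CPM in the lower. Tnf was at 311, 354, 518 and 267 CPM against 52.7, 198, 40 and 78.7 CPM, and Ccl3 at 605, 1106, 1382 and 1572 CPM against 285, 615, 0 and 778 CPM. Retnlg was lower in the upper part in all 4 libraries, at 445, 328, 442 and 7458 CPM against 1325, 1197, 5117 and 10079 CPM.

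Of the 15 hypoxia and glycolysis genes, 6 were higher and 1 lower in the upper part in all 4 libraries among members under 10000 UMIs, and 2 were higher and 0 lower in the split as designed. Their sum was 5406, 8887, 4243 and 13850 CPM in the upper part and 5497, 5998, 4457 and 6556 CPM in the lower, so only Cre- replicate 3 and Cre+ replicate 4 were higher. Hilpda, a hypoxia-induced lipid droplet gene that is itself in the tumor-state list, was at 246, 2089, 211 and 2886 CPM in the upper part and at 152, 284, 0 and 184 CPM in the lower. Egln3, an oxygen-sensing prolyl hydroxylase, was at 138, 168, 115 and 486 CPM against 78.0, 66.1, 40 and 78.7 CPM. Cre- replicate 3 and Cre+ replicate 4 had the high Hilpda values, 1 library of each genotype.

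The 15 cytokine and chemokine genes summed to 32573, 44688, 38094 and 32523 CPM in members under 10000 UMIs. Il1b alone was at 21048, 23669, 25422 and 13771 CPM, against 2284, 2085, 3060 and 1928 CPM in macrophages. Cxcl2 was at 7254, 15572, 6718 and 10452 CPM, and Ptgs2, the inducible cyclooxygenase, at 2982, 2226, 2722 and 702 CPM. Ccl4, a chemokine gene, was at 1145, 1495, 1772 and 2740 CPM. None of these levels is a test between classes, since the rule chose members by that contrast.

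Genotype was compared over libraries, with UMIs summed over members and edgeR's quasi-likelihood test across all genes. Over all 376 members, 0 of 5608 genes (0%) passed an adjusted p of 0.05 (Benjamini-Hochberg) and 219 had an unadjusted p under 0.05. Over the 350 members under 10000 UMIs, 0 of 3217 genes (0%) passed and 282 had an unadjusted p under 0.05, with a lowest adjusted p of 0.152. DESeq2 passed 4 genes over all members, Chil3, Rgs1, Csn3 and Retnlg. Retnlg was part of the rule and is not read as a call, and Csn3 is an epithelial gene carried by the deep members. In simulated data with the same 5608 genes, the edgeR test recovered 0% of genes changed by 1 on the log2 scale, 16.5% by 2 and 88% by 3, so a 4-fold difference was mostly not detectable with 2 libraries a genotype.

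The background for counts of separated genes was high. Over all members, both Cre+ libraries stood above both Cre- libraries for 566 of the 5608 genes (10.1%) and below them for 1153 (20.6%). Over members under 10000 UMIs the figures were 377 of 3217 genes (11.7%) above and 876 (27.2%) below, with a median log2 fold change of -0.01 over all genes tested. S100a8 and S100a9 together took 5.98%, 5.90%, 8.23% and 11.5% of the UMIs of these members, and the CPM of other genes share that total. The part that this has in the counts of separated genes was not tested.

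No gene below passed edgeR's test, and the values are given as levels, with DESeq2's result beside Rgs1, Chil3 and Csn3. Among the 14 mature neutrophil genes tested in members under 10000 UMIs, 8 were separated upward and 1 downward, with a median log2 fold change of 0.84. This stands beside 11.7% and 27.2% of all genes. Over all members it was 6 upward and 1 downward of 14, with a median of 0.35, beside 10.1% and 20.6% of all genes. Mmp8, neutrophil collagenase, was at 24, 34.1, 78.3 and 255 CPM (log2 fold change 2.91 ± 0.60 SE, edgeR adjusted p = 0.194; 2.42 ± 0.48 over all members, adjusted p = 0.722). Ly6g was at 22.7, 49.2, 78.3 and 123 CPM, from 17, 13, 8 and 27 UMIs. Stfa2l1, a stefin family gene with near-identical copies that make its count uncertain, was at 353, 477, 1156 and 1167 CPM (1.63 ± 0.29 SE, edgeR adjusted p = 0.152, and 1.30 ± 0.43 with an adjusted p of 1.00 over all members). Wfdc21, a secreted whey acidic protein family gene, was at 201, 170, 284 and 1144 CPM, with Cre+ replicate 4 alone far from the rest.

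Slpi was at 1137, 1612, 2566 and 2461 CPM and Pglyrp1, a peptidoglycan-binding granule protein, at 397, 496, 627 and 1071 CPM. The decoy receptor gene Il1r2, which takes up interleukin-1, went the other way at 2245, 2661, 1116 and 1404 CPM (-0.80 ± 0.30 SE, edgeR adjusted p = 0.494, and -1.02 ± 0.41 with an adjusted p of 1.00 over all members). Hdc, histidine decarboxylase, was at 2245, 2400, 2321 and 1600 CPM with the groups overlapping. Of the 11 immature granule genes only Lcn2 was abundant enough to test in these members, at 686, 912, 852 and 1623 CPM.

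Since more Cre+ members had Retnlg, some of these genes were read within the split. Stfa2l1 was at 621, 795, 1625 and 1183 CPM in members with Retnlg and at 243, 285, 599 and 1113 CPM in those without, so the genotypes did not overlap in either. Slpi in members with Retnlg was at 2632 and 2546 CPM in Cre- and at 3719 and 2967 CPM in Cre+, and in those without at 521 and 1050 against 1199 and 800 CPM, where the genotypes overlapped. Wfdc21 overlapped in both. Pglyrp1 was at 717, 876, 1083 and 1320 CPM with Retnlg and at 265, 267, 85.6 and 254 CPM without. The Cre+ values of Pglyrp1 without Retnlg come from 11 and 13 members and few UMIs, and no order of genotypes is read from them. Mmp8 was at 77.7, 40.3, 144 and 327 CPM with and at 1.88, 30.3, 0 and 19.5 CPM without, where the genotypes overlapped. Il1r2 was at 1832, 3100, 848 and 1302 CPM with and at 2415, 2396, 1434 and 1738 CPM without. It was lower in both Cre+ libraries in either part. The part that the mix of members has in the genotype values was not tested.

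Interferon-stimulated genes, which type I and II interferons induce in most cells, were in part separated by genotype. In members under 10000 UMIs, 7 of 15 tested were higher in both Cre+ libraries and 0 lower, with a median log2 fold change of 1.29 (over all members 11 of 16 and 0, median 0.86). Of all genes tested, 11.7% were higher and 27.2% lower in members under 10000 UMIs, and 10.1% and 20.6% over all members. Isg15, a ubiquitin-like protein that interferon induces, was at 713, 848, 1253 and 2060 CPM (1.27 ± 0.35 SE, edgeR adjusted p = 0.354, and 0.80 ± 0.38 with an adjusted p of 1.00 over all members). Rsad2, the gene of the antiviral enzyme viperin, was at 184, 356, 450 and 1864 CPM, and Usp18, which removes Isg15 from proteins, at 29.3, 18.9, 58.8 and 155 CPM. Ifit1 was at 179, 185, 294 and 898 CPM, while Ifitm3 was at 1094, 2120, 1870 and 2302 CPM with overlap.

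Cre+ replicate 4 held the highest sum of the 16 genes, 10593 CPM against 3323, 5212 and 5503 CPM, and the order was the same in macrophages (2139, 2422, 2513 and 4277 CPM). Epithelial cells were at 1214, 1120, 1399 and 2253 CPM and monocytes at 8573, 7057, 6000 and 9212 CPM, each with Cre+ replicate 4 highest. Without Cre+ replicate 4 the separation of Cre+ replicate 2 from Cre- replicate 3 was small for Rsad2 (450 against 356 CPM) and for the list (5503 against 5212 CPM). Within the split by Retnlg the direction differed by library: Rsad2 in Cre+ replicate 2 was at 90.3 CPM with Retnlg and 878 CPM without, and in Cre- replicate 3 at 866 CPM with and 48.5 CPM without.

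Tumor-state genes lay lower in Cre+ libraries for 6 of the 14 tested in members under 10000 UMIs, with 1 higher and a median log2 fold change of -0.21 (7 lower and 0 higher of 14 over all members, median -0.29), beside 27.2% of all genes below. Siglecf was at 213, 125, 97.9 and 31.9 CPM, from 160, 33, 10 and 7 UMIs (-1.47 ± 0.47 SE, edgeR adjusted p = 0.442, and -1.83 ± 0.76 with an adjusted p of 1.00 over all members), and the adhesion molecule gene Icam1 at 249, 416, 235 and 59.3 CPM. Cd14, a co-receptor for lipopolysaccharide and the most abundant of the list, was at 3628, 4535, 3192 and 2762 CPM (-0.33 ± 0.28 SE, edgeR adjusted p = 0.767, and -0.52 ± 0.44 with an adjusted p of 1.00 over all members). Ptgs2 at 2982, 2226, 2722 and 702 CPM, Ier3, a stress-response gene, at 1400, 1798, 1449 and 1951 CPM and Ccrl2, an atypical chemoattractant receptor gene, at 1621, 2245, 2066 and 1112 CPM all overlapped. Spp1, osteopontin, was at 203, 220, 147 and 22.8 CPM in these members and had a log2 fold change of opposite sign over all members (-1.47 against 0.43).

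Cytokine and chemokine genes did not lean one way, with 3 of 14 tested higher and 2 lower in both Cre+ libraries and a median log2 fold change of 0.20. These are 21.4% and 14.3%, beside 11.7% and 27.2% of all genes. Ccl6 was at 259, 560, 1312 and 1805 CPM (2.11 ± 0.43 SE, edgeR adjusted p = 0.194, and 1.74 ± 0.49 with an adjusted p of 1.00 over all members). In members with Retnlg, Ccl6 was at 603 and 1288 CPM in Cre- and at 2365 and 2331 CPM in Cre+. In those without, Ccl6 was at 117 and 121 CPM in Cre- and at 64.2 and 78.1 CPM in Cre+. These Cre+ values rest on few UMIs, from 11 and 13 members, and no order of genotypes is read from them. Tnfsf14, the TNF family ligand LIGHT, was at 65.3, 53.0, 9.79 and 18.2 CPM, the Cre+ values resting on few UMIs. Il1b and Cxcl2, the most abundant members, overlapped between genotypes.

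The 17 trafficking and sensing receptors guide neutrophils or detect microbes and damage. In members under 10000 UMIs, 3 were higher and 5 lower in both Cre+ libraries, with a median log2 fold change of 0.16. These are 17.6% and 29.4% of the list, beside 11.7% and 27.2% of all genes. Over all members 0 were higher and 5 lower, with a median of -0.09, beside 10.1% and 20.6% of all genes. Ccr1 was at 1097, 1143, 1058 and 1130 CPM, Trem1, an amplifier of inflammation, at 1362, 1279, 1351 and 1153 CPM, and Clec4e, a receptor for fungal and mycobacterial glycolipids, at 1774, 2063, 1263 and 1395 CPM. Cxcr4, which draws aged neutrophils back to the bone marrow, was at 704, 897, 597 and 387 CPM (-0.60 ± 0.28 SE, edgeR adjusted p = 0.553, and -0.68 ± 0.48 with an adjusted p of 1.00 over all members).

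Of the other lists, oxidative burst genes were separated upward in 1 and downward in 2 of 8 tested. These are 12.5% and 25%, beside 11.7% and 27.2% of all genes. Cyba, a subunit of the NADPH oxidase, was at 898, 1162, 979 and 953 CPM, Rac2, its small GTPase, at 901, 761, 1087 and 752 CPM, and Ncf1, another subunit, at 412, 435, 274 and 273 CPM. Prdx5, a peroxidase, was at 828, 977, 1146 and 1586 CPM. Among 7 tested T-cell suppression genes, 2 were higher (28.6%) and 1 lower (14.3%), beside the same shares of all genes. Anxa1 was at 216, 288, 588 and 866 CPM (1.72 ± 0.34 SE, edgeR adjusted p = 0.194, and 1.40 ± 0.41 with an adjusted p of 1.00 over all members), while Wfdc17 at 2650, 4171, 2967 and 6527 CPM overlapped.

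Hypoxia and glycolysis genes were separated in 0 of 14 tested, with Gapdh at 1404, 1980, 999 and 2698 CPM, Aldoa at 760, 1071, 734 and 1331 CPM and Pkm at 916, 1079, 823 and 1203 CPM, all glycolytic enzymes that were lowest in Cre+ replicate 2 and highest in Cre+ replicate 4. Immediate early genes were separated in 1 of 11, Jun, at 356, 337, 382 and 761 CPM, which overlapped over all members with the opposite sign of the log2 fold change (-0.17 against 0.94). Junb at 5913, 4906, 7031 and 3537 CPM, Btg2 at 4289, 3785, 5082 and 2302 CPM and Dusp1 at 2371, 2593, 2771 and 1837 CPM each had Cre+ replicate 2 highest and Cre+ replicate 4 lowest, so the spread within Cre+ covered Cre-. Of 10 survival and death genes tested, 1 was higher (10%) and 3 lower (30%). Over all genes tested in these members 11.7% were higher and 27.2% lower, which stands beside each count of this paragraph. Mcl1, which keeps neutrophils alive, was at 4216, 4205, 4652 and 3829 CPM, Bcl2l11, its pro-death counterpart Bim, at 289, 201, 186 and 169 CPM, and Bcl2a1b, whose copies share reads, at 419, 447, 382 and 242 CPM. Of 7 transcription factors tested, 1 was higher, Klf2, at 650, 500, 1165 and 688 CPM, and 1 lower, Cebpb, at 7503, 7994, 7305 and 6960 CPM with a log2 fold change of 0.02 after TMM scaling (-0.15 over all members). Spi1, the PU.1 factor of the myeloid lineage, was at 700, 746, 764 and 738 CPM.

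The genes with the lowest unadjusted p were read as values. Among genes of at least 50 CPM higher in both Cre+ libraries, Jaml, a junctional adhesion molecule that neutrophils use to cross endothelium, was at 72.0, 87.1, 264 and 223 CPM (1.78 ± 0.30 SE, edgeR adjusted p = 0.152 in members under 10000 UMIs, and 1.67 ± 0.44 with an adjusted p of 1.00 over all members). Nfe2, a transcription factor gene best known from megakaryocytes, was at 26.7, 15.1, 108 and 119 CPM, Dnajb9, a chaperone of the endoplasmic reticulum, at 88.0, 75.7, 235 and 237 CPM, and Vim, vimentin, at 279, 148, 705 and 624 CPM. These 4 genes were picked for a low unadjusted p, so a small spread within genotypes relative to the gap was part of the choice. In members with Retnlg each of them was higher in both Cre+ libraries. In those without, the genotypes overlapped in each, with Jaml at 33.9, 66.7, 107 and 58.6 CPM and Vim at 233, 170, 150 and 293 CPM.

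Lower in both Cre+ libraries were Rgs1, a regulator of G protein signaling that dampens chemokine receptors, at 252, 333, 19.6 and 41.0 CPM (-2.92 ± 0.44 SE, edgeR adjusted p = 0.152, and -3.41 ± 0.58 with an adjusted p of 0.499 over all members), and Pde4b, a cyclic AMP phosphodiesterase, at 604, 583, 274 and 219 CPM. Thbs1, thrombospondin-1, was at 941, 469, 225 and 237 CPM, and Mpp7, a scaffold protein gene, at 421, 250, 127 and 105 CPM. Plscr1, phospholipid scramblase 1, was at 161, 212, 58.8 and 59.3 CPM, and Nr4a2, an orphan nuclear receptor gene, at 231, 223, 97.9 and 9.12 CPM. DESeq2 gave Rgs1 a log2 fold change of -3.51 over all members, with an adjusted p of 0.0217. Rgs1 in macrophages of the same libraries was at 1478, 1344, 1857 and 1919 CPM, higher in both Cre+ libraries. Within the split, Rgs1 was at 333 and 473 CPM in Cre- members without Retnlg and at 42.8 and 39.0 CPM in Cre+ members without it, the latter from 2 UMIs in each library. In members with Retnlg, it was at 54.8 and 101 CPM in Cre- and at 0 and 41.6 CPM in Cre+ libraries.

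Gm47015, a predicted gene, was at 117 and 140 CPM in the Cre- libraries (88 and 37 UMIs) and at 0 UMIs in both Cre+ libraries, which allows up to 29.4 and 13.7 CPM. In macrophages both Cre- libraries were also above both Cre+ libraries, at 8.05, 5.82, 0.416 and 0 CPM. Vmn2r96, annotated as a vomeronasal receptor, was at 80.0 and 106 CPM and at 0 in both Cre+ libraries, and in macrophages at 3.74, 5.64, 0.694 and 0.0737 CPM. Both genes were thus higher in both Cre- libraries in more than 1 cell class, and the cause was not tested.

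Among genes named only from all members, Chil3 (log2 fold change 4.01 ± 0.62 SE, edgeR adjusted p = 0.428), Gng11 (3.04), Lgals1 (-2.26) and Csn3 (-2.66 ± 0.67 SE, edgeR adjusted p = 0.997) depended on the deep members. DESeq2 passed Chil3 (3.96, adjusted p = 0.0217) and Csn3 (-2.71, adjusted p = 0.0287) over all members. In members under 10000 UMIs, Chil3 was at 8.00, 15.1, 108 and 0 CPM, Gng11 at 4.0, 3.79, 0 and 31.9 CPM, Lgals1 at 34.7, 64.3, 39.2 and 22.8 CPM and Csn3 at 255, 337, 450 and 105 CPM, with the genotypes overlapping in each.

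Frmd8 itself was scarce in neutrophils, at 25.3, 15.1, 29.4 and 18.2 CPM from 19, 4, 3 and 4 UMIs. These are counts per gene, not per exon, and do not check the deletion of the floxed exons 4 to 6.

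**Figure D5:**
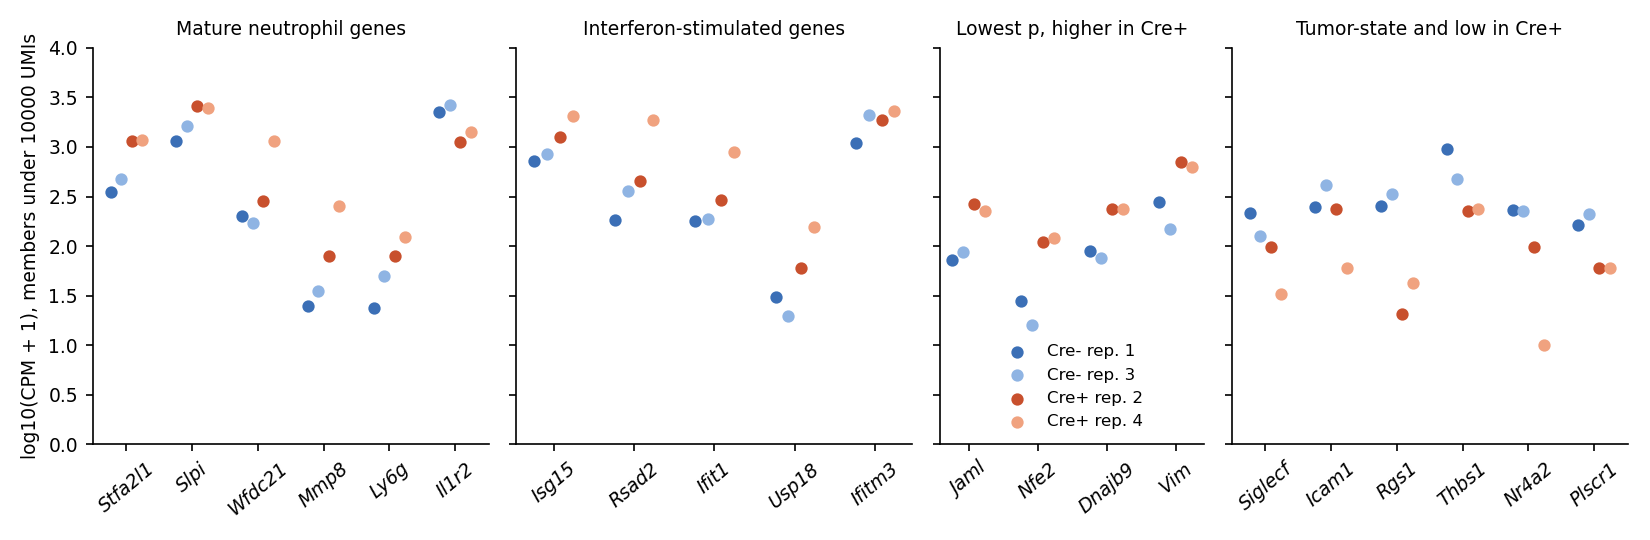
Level per library as log10(CPM + 1) in members under 10000 UMIs, for genes of the mature neutrophil list, interferon-stimulated genes, 4 genes with the lowest unadjusted p among those higher in Cre+, and tumor-state genes with genes lower in Cre+. Cre- libraries are blue and Cre+ libraries red. Jaml, Nfe2, Dnajb9 and Vim, picked for a low unadjusted p, are higher in both Cre+ libraries. Wfdc21, Rsad2 and Usp18 are set apart by Cre+ replicate 4. No gene passed edgeR's adjusted threshold, while DESeq2 passed Rgs1 over all members.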

How the data were processed

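Single-cell 3′ gene expression was measured in 4 tumor libraries. The authors deposited UMI counts per gene and barcode; per the file headers they came from Cell Ranger 6.1.2 (3 libraries, called cells) and Cell Ranger 4 (Cre+ replicate 4, all droplets). The genome build is not used here, since the submitters' notes name a human build beside mouse gene identifiers. Members were selected as described, with no doublet caller, and their counts were summed per library and tested with edgeR 4.0.16 (quasi-likelihood, TMM, filterByExpr, Benjamini-Hochberg); DESeq2 1.42.0 was an alternative. Genes of the rule stayed in the fits and in counts of genes, but no call is read for them. Shares were compared by exact permutation tests over libraries, which are the replicates. Their p-values rest on the ways in which 4 libraries can be divided between the genotypes, and do not measure the spread between mice.

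The members, gene lists and tests were chosen with earlier results of these data known, and the limit of 10000 UMIs and the Retnlg split after the data were seen. Named genes were, per program list, the 3 most abundant and the 2 with the largest log2 fold change, the 5 per direction with the lowest unadjusted p among separated genes of at least 50 CPM, and the most abundant gene of each other-cell list; the rule was applied to all members and again to members under 10000 UMIs. Genes picked outside it are values only. The edgeR script was tested on simulated data. Some genes that the rule names are not reported here.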

Additional observations from a re-analysis of the deposited data

How the results depend on the processing

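No paired analysis was possible because the replicate numbers are not shared between the genotypes (1 and 3 in Cre-, 2 and 4 in Cre+). The difference in neutrophil share kept its sign under every alternative run. It went from -5.24 points over barcodes with a Ptprc UMI to -0.951 without likely doublets, and from -3.34 to -0.536 when 1 library was left out. The difference in the ratio to macrophages ranged from -19.5 to -7.89, and from -28.6 to -4.03 when 1 library was left out. Likely doublets were taken out of the members only, not out of the cells they were set against. With edgeR, 0 genes were called at 1000 UMIs, with S100 at least 100 per 10000, without likely doublets, under 10000 UMIs, with members thinned to 500 UMIs, with RLE and without scaling. DESeq2 called 4 genes (Retnlg, of the rule, among them) and edgeR without a filter on low counts 106 of 15136; the causes were not tested. Leaving out 1 library, with the lone library of its genotype assumed to vary like the other genotype, gave 25 to 308 called genes (25 without Cre- replicate 1, 41 without Cre- replicate 3, 308 without Cre+ replicate 2, 32 without Cre+ replicate 4). Fold changes were recomputed for 48 genes, those named by size or p over all members and the others whose genotype difference the report gives, and 10 changed sign. Of the 48 genes, 24 could be tested when thinned, 39 without likely doublets and 43 under 10000 UMIs. Over all 82 tested genes that the rule names, 36 changed sign under at least 1 alternative. The log2 fold change of Lcn2 was -0.71 over all members and 0.63 without likely doublets, 0.83 under 10000 UMIs and 0.41 when thinned, and ranged from -1.64 to 0.22 when 1 library was left out (positive without Cre- replicate 3). Hk2 went from -0.57 to 0.27 with S100 at least 100 per 10000 and ranged from -1.23 to 0.46 (positive without Cre- replicate 3). Spp1 went from 0.43 to -1.27 without likely doublets, -1.47 under 10000 UMIs and -0.0074 when thinned, and ranged from -2.48 to 1.40. Jun went from -0.17 to 1.15, 0.94 and 0.90 under the same 3 settings and ranged from -0.82 to 0.72. Klf2 went from 0.16 to -0.044 without a filter and ranged from -0.57 to 0.68, and Cebpb went from -0.15 to 0.018 under 10000 UMIs and ranged from -0.52 to 0.14. The other 4 turned only without Cre+ replicate 4, with left-out ranges of -1.01 to 1.76 for Cybb (0.76 over all), -1.03 to 4.26 for Hspa1a (2.03), -1.53 to 0.0028 for Bcl2a1b (-0.65) and -0.38 to 1.68 for Xbp1 (1.04). With 27 members in Cre+ replicate 2, a gene under 29.4 CPM among its members below 10000 UMIs rests on fewer than 3 UMIs.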
